A study of Homo sapiens with 7 samples.

Results

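The zinc finger genes numbered ZNF500 to ZNF899 were followed on single-colour Agilent arrays of the squamous lung carcinoma cell line NCI-H520, after silencing of single deadenylases, the enzymes that shorten the poly(A) tail of mRNA. The range of symbols was set with earlier results of these data known, and within it members were taken by symbol. They were the genes called ZNF with a number in this range and an optional letter A to J, without pseudogenes and antisense genes, whose accession on the array matched a RefSeq gene table. Of 255 such genes in the table, 227 had a named probe, out of 19063 named genes on the array. Where a gene had several probes, the brightest on average was used. Of the 227 members, 215 were well above background on at least 2 arrays and were tested, among 17835 tested genes. On all 7 arrays 205 members were above background, 10 were on none, and each array detected between 208 and 214 of them.

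Each group had 1 array. The controls were an empty-vector transfection and a non-target shRNA, and the silenced genes were PARN, CNOT6, CNOT6L, CNOT7 and NOC (nocturnin, symbol NOCT). All 7 cultures were transfected with plasmid (6 µg), put under puromycin (6 µg/mL) after 12 h and harvested at 72 h, so transfection and selection are shared by controls and shRNAs. The labels give the CNOT6L and NOC shRNAs the same target accession, that of nocturnin, so what the CNOT6L plasmid targets is uncertain. Both control arrays lay in row 1 of the slide, with those for PARN and CNOT6 shRNA. Row 2 held CNOT6L, CNOT7 and NOC shRNA and no control. A difference that separates the rows therefore cannot be told apart from a difference between these shRNAs and the rest.

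C2H2 zinc finger proteins bind DNA through repeated fingers that each hold a zinc ion, and they form the largest family of human transcription factors. Many carry a KRAB domain, which recruits the corepressor TRIM28 and, through it, the histone methyltransferase SETDB1 and heterochromatin proteins to silence transposable elements and genes. The genes have multiplied by tandem duplication, above all on chromosome 19, where 115 of the 227 members lie. Their mRNAs are typically short-lived, which makes their levels a question of interest when enzymes of mRNA decay are silenced.

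Values are log2 processed signal minus the 75th percentile of the array, so 0 is that percentile and 1 unit is a 2-fold difference. They can be compared between arrays for 1 gene but not between genes. The 75th percentile signal was 1360 to 3239 in row 1 and 3157 to 3939 in row 2, and 82.0% to 91.4% and 87.8% to 88.0% of gene probes were above background. Each targeted mRNA had its lowest value on its own array. The difference from the mean of the controls was -1.13 for PARN, -0.16 for CNOT6, -0.67 for CNOT6L, -0.88 for CNOT7 and -0.42 for NOCT. That of CNOT6 was close to the lower quartile of all tested genes on its array (-0.16). Among the 5 genes the 2-fold rule against both controls, described below, gave 1 call. In 2 of the 5 all row 2 values lay on 1 side of all row 1 values. With 1 array each, silencing of all 5 is not established. Of the 6 squamous markers, SOX2, KRT6A and PKP1 were above background on all 7 arrays, KRT5 on 4, TP63 on 2 and DSG3 on none. Above background on all 7 were also 3 of 4 adenocarcinoma markers, NKX2-1 among them, 3 of 4 fibroblast and 4 of 4 leukocyte markers. Detection of these markers therefore does not tell the cell types apart here. None of the squamous, adenocarcinoma, fibroblast and leukocyte markers tested passed the test between the row 2 shRNAs and the controls described below. Against the row 1 shRNAs the keratin KRT6A rose in row 2, by 1.13 ± 0.21 (SE, limma adjusted p = 0.0181), and it lay 2-fold above both controls with CNOT6L shRNA. Its part in the results below was not tested.

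The members as a family lay lower on the arrays with CNOT6L, CNOT7 and NOC shRNA than on the control arrays. The median log2 difference from the mean of the controls was -0.27 with CNOT6L shRNA (167 of 215 members lower), -0.22 with CNOT7 shRNA (160 of 215) and -0.21 with NOC shRNA (161 of 215). Over all tested genes the same medians were 0.00, -0.02 and -0.02. With PARN and CNOT6 shRNA the member medians were 0.04 (90 of 215 lower) and 0.03 (99 of 214 lower), beside -0.03 and 0.04 over all genes. All 5 comparisons share the same control arrays. The ZNF genes with lower numbers, 235 of them tested, gave -0.25, -0.20 and -0.21 for the row 2 arrays and 0.06 and 0.04 for PARN and CNOT6 shRNA, so the rest of the family lay on the same side. The control arrays themselves differed by a member median of 0.09, empty vector over non-target, against 0.05 over all genes.

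**Figure D1:**
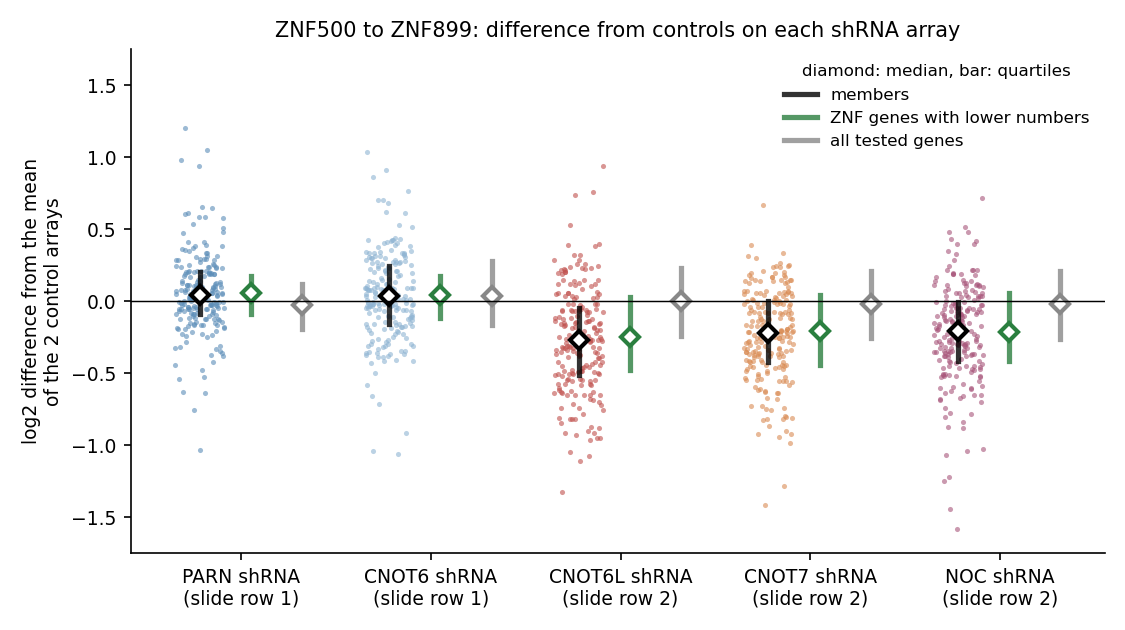
Each point is 1 of the 215 tested members, plotted as the log2 difference of an shRNA array from the mean of the 2 control arrays; diamonds are medians and bars the quartiles of members, of ZNF genes with lower numbers and of all tested genes, and 7 member values beyond 1.6 are not drawn. The members' medians are 0.04 and 0.03 in slide row 1 and -0.27, -0.22 and -0.21 in slide row 2, where all tested genes stay at about 0.

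The shift followed the slide row. Taken as deviation from each gene's mean over the 7 arrays, the member median was 0.15 for the empty vector, 0.03 for the non-target control, 0.15 with PARN shRNA and 0.13 with CNOT6 shRNA. It was -0.18 with CNOT6L shRNA, -0.14 with CNOT7 shRNA and -0.13 with NOC shRNA. The 4 arrays of row 1 and the 3 of row 2 did not overlap in this median. Over all tested genes it stayed between -0.03 and 0.05 on every array. Within row 2, each array against the mean of the other 2 gave member medians of -0.06 (CNOT6L shRNA), 0.03 (CNOT7) and 0.03 (NOC).

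**Figure D2:**
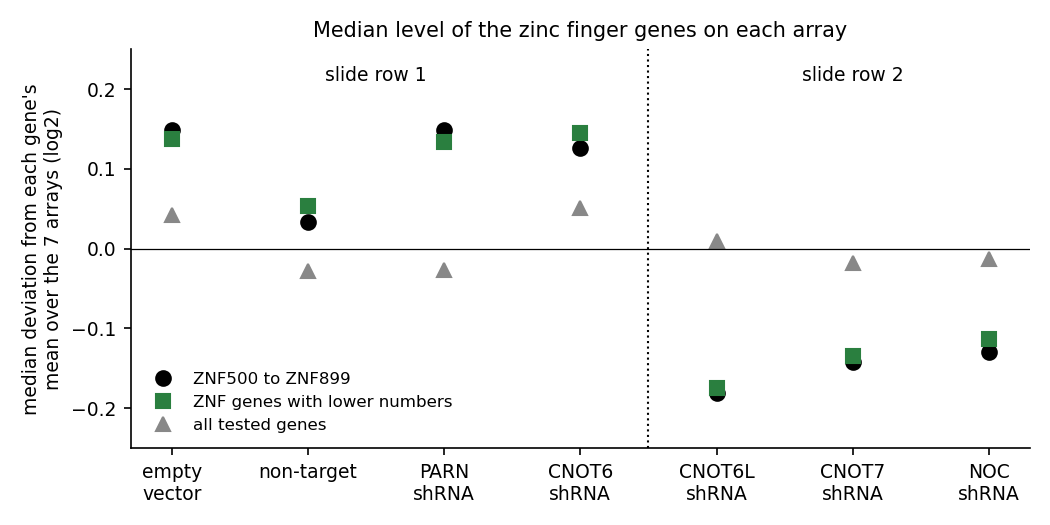
The vertical axis is the median deviation (log2) from each gene's mean over the 7 arrays, 1 array per position on the horizontal axis, for members, ZNF genes with lower numbers and all tested genes. The members lie at 0.03 to 0.15 in slide row 1 and at -0.18 to -0.13 in slide row 2.

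Gene by gene, 79 of the 215 members (36.7%) had all 3 row 2 values below all 4 row 1 values, where the share over all tested genes was 14.0%. The opposite order was seen for 12 members (5.58%), against 12.9% of all genes. Both counts were added after seeing the data. The ZNF genes with lower numbers gave 39.6% and 7.23%. Members on chromosome 19 had 40.7% below and members elsewhere 32.7%, with median differences between rows of -0.35 and -0.25, so both locations lay on the same side. The median difference of the row 2 arrays from row 1 was -0.30 over members and -0.02 over all genes.

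The shift was seen at every signal level. Split by quartile of mean signal over all tested genes, the members' median difference between the row 2 shRNAs and the controls was -0.21 in the dimmest quartile (33 members), -0.25 (69), -0.24 (75) and -0.18 in the brightest (38). All tested genes went from -0.11 in the dimmest quartile through -0.05 and 0.00 to 0.07 in the brightest. Further probes of the same genes, which were not used above, gave a median of -0.27, with 68 of 77 tested probes lower and 57 of the 77 on the same side as the brightest probe of their gene. Of the brightest probes 162 of 215 were lower too, so sharing a side says little about single genes. The highest 75th percentile signals were in row 2, but the rows overlapped: the empty-vector array (3239, row 1) lay above NOC shRNA (3157, row 2). The part of array signal or slide row in the shift was not tested. With total RNA of whole cultures, less RNA per cell and fewer expressing cells cannot be told apart.

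**Figure D3:**
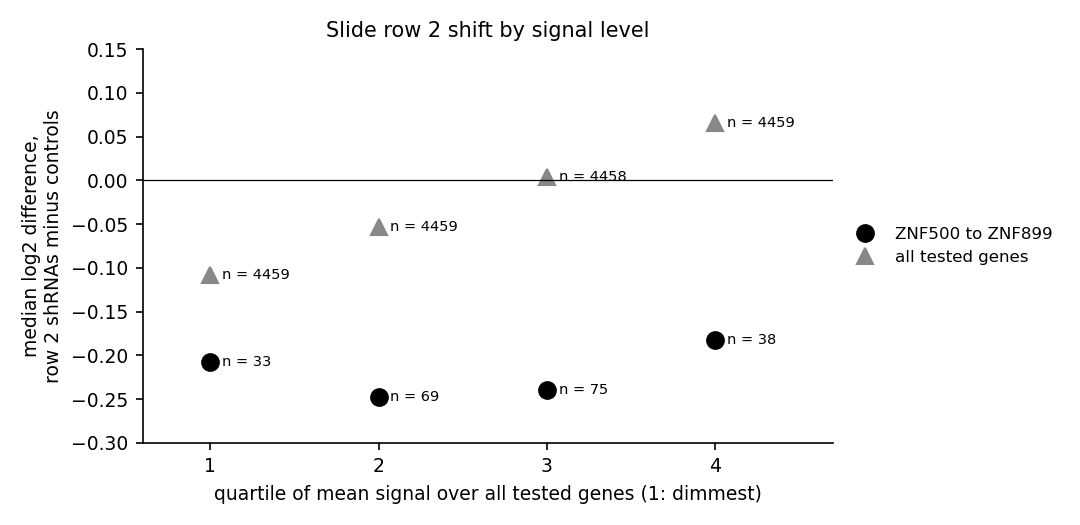
The vertical axis is the median log2 difference of the 3 row 2 shRNA arrays from the 2 controls, the horizontal axis the quartile of mean signal, with the number of genes beside each point. Members lie between -0.25 and -0.18 in every quartile, below all tested genes, which run from -0.11 to 0.07.

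The single members were tested with limma, a linear model with a spread shared across genes, in which the arms were the 2 controls, the 2 row 1 shRNAs (PARN and CNOT6) and the 3 row 2 shRNAs. The spread it uses is thus the one between shRNAs against different genes and between the control plasmids. Between the row 2 shRNAs and the controls 11 of 214 members fell (5.14%) and none rose, where 1.58% of all 17805 genes fell and 0.955% rose. Without adjustment 74 members passed, 70 of them lower, which is 34.6% of members against 20.8% of all genes. The 11 were ZNF703, ZNF776, ZNF556, ZNF608, ZNF620, ZNF540, ZNF707, ZNF655, ZNF879, ZNF527 and ZNF789, with differences from -1.22 to -0.54 and limma adjusted p from 0.0158 to 0.0405, and all 11 had non-overlapping rows. Here and below, their separation from the controls follows largely from the values that gave the calls, so it is no added evidence. These calls rest on each of the row 2 arrays: none of the members passed without the CNOT6L, the CNOT7 or the NOC shRNA array, where 0.0842% to 0.124% of all genes passed. Without the empty vector 17 members passed (7.94%, against 6.28% of all genes, so near the background share), and without the non-target control 30 (14.0% against 6.94%).

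ZNF703, a transcriptional corepressor of the NET family amplified in luminal breast cancers, had the largest such drop after ZNF540. Its values were -0.65 (empty vector), -0.53 (non-target), -0.45 (PARN shRNA), -0.71 (CNOT6 shRNA), -1.70 (CNOT6L shRNA), -1.49 (CNOT7 shRNA) and -1.84 (NOC shRNA). The 3 row 2 arrays were about 1 unit below the rest, a difference of -1.09 ± 0.15 (SE) from the controls with a limma adjusted p of 0.0158. A dimmer second probe of ZNF703 lay -0.74 from the controls on the row 2 arrays.

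In the same order of arrays, ZNF776 had values of 1.37, 1.21, 1.50 and 1.53 in row 1 and 0.58, 0.66 and 0.51 in row 2. The rows did not overlap. The difference from the controls was -0.71 ± 0.10 (SE, limma adjusted p = 0.0216), and its second probe gave -0.59. ZNF608, a paralogue of the cohesin-loader partner ZNF609, had -0.25, -0.23, -0.13 and -0.34 in row 1 and -1.29, -0.91 and -1.11 in row 2. All row 2 values were lower, by -0.86 ± 0.14 on average (SE, limma adjusted p = 0.0299), and a second probe lay -0.78 from the controls.

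ZNF540 read -3.40, -3.02, -3.23 and -3.51 in row 1 and -4.53, -4.50 and -4.25 in row 2. Its difference of -1.22 ± 0.21 (SE, limma adjusted p = 0.0299) was the widest among the 11. ZNF556 read -0.07, -0.10, -0.27 and -0.26 in row 1 against -1.05, -0.84 and -0.78 in row 2. ZNF620 read -2.52, -2.60, -2.65 and -2.59 against -3.46, -3.51 and -3.44. In both genes every row 2 value lay below every row 1 value, with differences of -0.81 ± 0.12 and -0.91 ± 0.15 (SE). Of the 11 members, 5 had further tested probes, 6 in all, and 5 of these 6 were lower. The exception was ZNF655, whose dimmer probe differed from the controls by 0.01 where the brighter one fell by 0.54. Over all members 68 of 77 further probes were lower, so 5 of 6 is near the family's share.

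The other 5 of the 11 split between the rows in the same way. ZNF707 read -0.26, -0.14, -0.01 and -0.34 in row 1 and -1.12, -1.02 and -0.84 in row 2. ZNF879 read -1.94, -1.70, -1.77 and -2.13 in row 1 and -2.74, -2.55 and -2.89 in row 2, and ZNF527 read -2.08, -2.04, -1.87 and -2.25 against -2.91, -2.87 and -2.80. In all 3 genes every row 2 value lay below every row 1 value. ZNF789 read -0.30, -0.64, -0.22 and -0.52 in row 1 and -1.29, -1.11 and -1.25 in row 2, and its other probes lay -0.80 and -0.67 from the controls. ZNF655 read 1.93, 2.01, 1.77 and 1.93 against 1.41, 1.51 and 1.35, the smallest difference of the 11 at -0.54 ± 0.10 (SE).

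**Figure D4:**
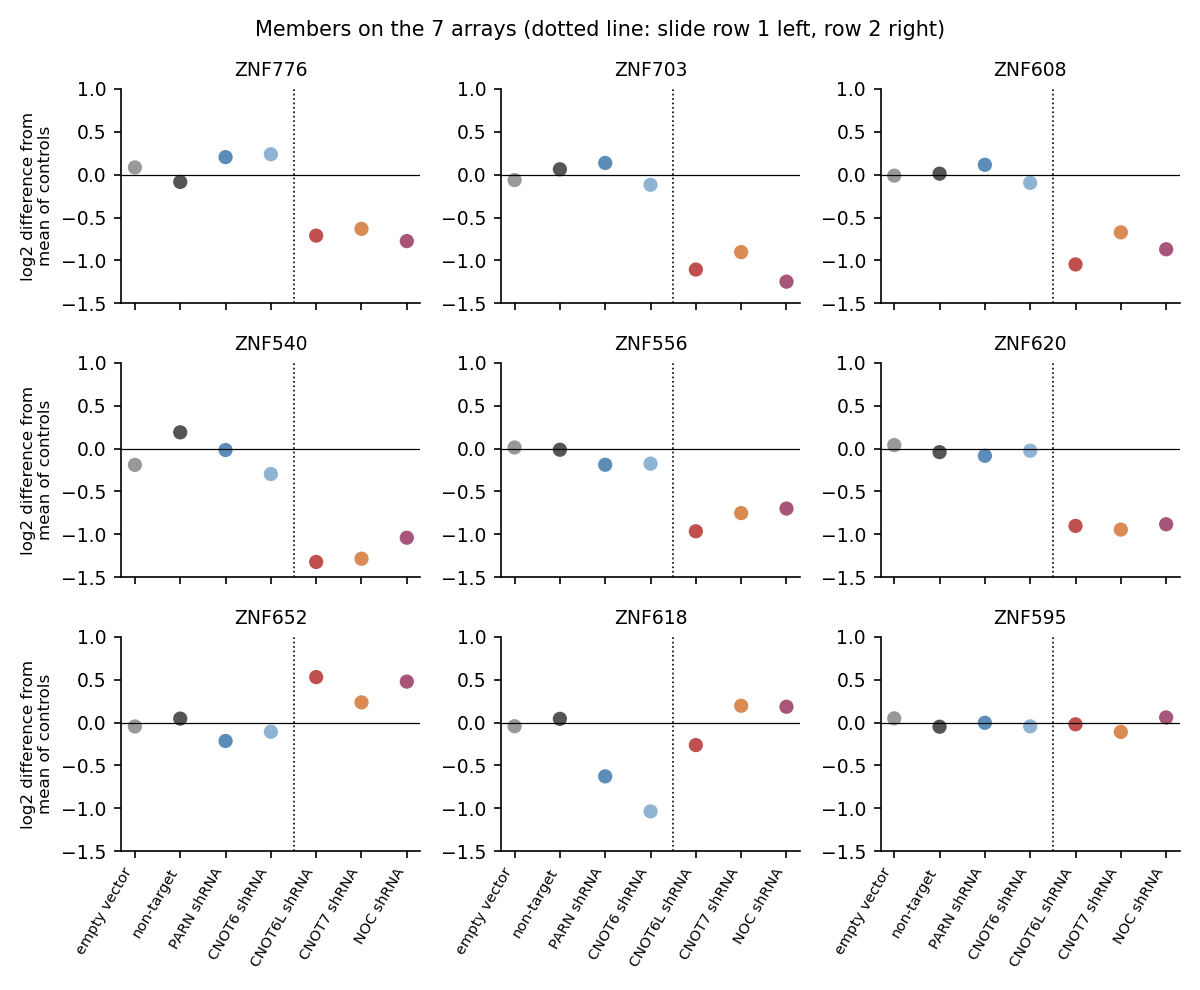
Each panel plots 1 member on the 7 arrays as the log2 difference from the mean of the 2 control arrays, with slide row 1 left and slide row 2 right of the dotted line. ZNF776, ZNF703, ZNF608, ZNF540, ZNF556 and ZNF620 are lower on all 3 row 2 arrays, ZNF652 is higher there, ZNF618 is lowest with PARN and CNOT6 shRNA, and ZNF595 has the narrowest range of the members, 0.17.

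The promoters of 4 of the members that fell are shown because these genes moved together, as windows of 300 bases that lie mostly upstream of the gene start in RefSeq (assembly GRCh38.p14), read 5′ to 3′ on the gene's strand. Capitals mark matches on either strand to CCAAT, the GC box GGGCGG, the TATA box TATAAA, the ETS motif CCGGAAG, the CRE-like motif TGACGT, the YY1 motif AAGATGGC, the palindromic NRF1 motif or the ZNF143 core ACTACAA.
ZNF776 (chr19:57746565-57746864, plus strand): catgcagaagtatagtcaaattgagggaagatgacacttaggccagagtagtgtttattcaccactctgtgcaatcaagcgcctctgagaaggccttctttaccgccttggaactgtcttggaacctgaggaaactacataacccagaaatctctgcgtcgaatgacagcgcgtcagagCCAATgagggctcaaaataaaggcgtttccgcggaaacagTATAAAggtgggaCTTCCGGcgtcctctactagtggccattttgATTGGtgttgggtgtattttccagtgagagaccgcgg
ZNF540 (chr19:37551124-37551423, plus strand): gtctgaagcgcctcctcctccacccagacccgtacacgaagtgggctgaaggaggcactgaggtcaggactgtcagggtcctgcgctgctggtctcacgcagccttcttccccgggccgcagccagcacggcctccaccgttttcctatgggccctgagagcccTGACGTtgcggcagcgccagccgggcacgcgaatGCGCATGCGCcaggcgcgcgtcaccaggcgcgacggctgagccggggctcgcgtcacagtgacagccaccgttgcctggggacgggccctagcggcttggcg
ZNF556 (chr19:2867085-2867384, plus strand): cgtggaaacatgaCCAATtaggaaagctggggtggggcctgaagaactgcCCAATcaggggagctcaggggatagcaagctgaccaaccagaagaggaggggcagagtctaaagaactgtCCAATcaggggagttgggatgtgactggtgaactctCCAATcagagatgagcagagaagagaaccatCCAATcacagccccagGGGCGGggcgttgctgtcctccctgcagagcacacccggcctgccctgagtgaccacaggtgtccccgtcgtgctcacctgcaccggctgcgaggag
ZNF608 (chr5:124748775-124749074, minus strand): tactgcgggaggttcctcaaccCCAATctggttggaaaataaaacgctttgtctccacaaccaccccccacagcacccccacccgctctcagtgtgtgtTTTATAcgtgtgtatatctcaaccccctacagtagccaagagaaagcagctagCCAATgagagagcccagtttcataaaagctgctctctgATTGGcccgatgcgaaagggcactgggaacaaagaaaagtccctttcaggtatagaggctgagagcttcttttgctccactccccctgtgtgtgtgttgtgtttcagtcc
No motif is found in all 4. ZNF776 carries the ETS motif, a TATA box and CCAAT on both strands. ZNF540 has a CRE-like motif and the NRF1 motif, ZNF556 has CCAAT 5 times and 1 GC box, and ZNF608 has CCAAT or its reverse 3 times and a TATA box in reverse.

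Over the 191 members with a promoter in the table, the ETS motif CCGGAAG was present in 38.2%, against 10.67% of all 27305 promoters of the same length. CCAAT was found in 49.7% against 35.7%, GGGCGG in 63.9% against 44.6%, TGACGT in 13.1% against 8.32% and AAGATGGC in 5.76% against 3.03%. The NRF1 motif was found in 3.14% against 1.36%, ACTACAA in 3.66% against 2.95%, and TATAAA was the rarer one, in 4.19% against 12.0%. The ZNF genes with lower numbers were alike, with ETS matches in 40.3%. Member promoters held a median of 22 CG dinucleotides, against 14 over all promoters. The row 2 difference from the controls had a median of -0.19 in the 70 tested members with the ETS motif and -0.22 in the 112 without, and of -0.22 and -0.21 in those with and without CCAAT. The GC box gave -0.18 in the 116 members with it and -0.26 in the 66 without, and in every such split, of all 8 motifs, both medians were below 0. A match is a description of the letters, not a site.

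Against the row 1 shRNAs, 31 of the 214 members were lower in row 2 (14.5%) and 3 were higher (1.40%), where 4.2% of all genes fell and 4.03% rose. The 31 include all 11 above, and 17 lie on chromosome 19. Of the 12 further tested probes of these genes, 11 were lower in row 2 than the mean of row 1 with its controls included. Of all 77 further member probes 69 were lower by this measure, so the 11 are near the family's share. The differences of the 31 members ran from -1.22 to -0.37 with a median of -0.75, at limma adjusted p from 0.00473 to 0.0486. The genes with the smallest p were ZNF776 (-0.93 ± 0.10, SE) and ZNF703 (-1.10 ± 0.15), followed by ZNF608 and ZNF625. ZNF625 read 1.96, 1.47, 2.13 and 2.23 in row 1 and 1.22, 1.17 and 1.39 in row 2, so its lowest row 1 value, on the non-target array, lay close to row 2. The count of 34 members was 1 without the PARN shRNA array, 9 without CNOT6 shRNA, 2 without CNOT6L shRNA, 4 without CNOT7 shRNA and 6 without NOC shRNA, and 80 and 79 without the empty-vector or non-target array. All genes moved likewise: 8.23% passed with all arrays, 0.966%, 2.34%, 0.483%, 1.25% and 1.61% without those shRNA arrays in turn, and 18.9% and 18.8% without either control, where 37.4% and 36.9% of members did. Without the PARN shRNA array the member share, 0.467%, was below that of all genes.

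The 3 higher members were ZNF652, ZNF618 and ZNF554. ZNF652, a DNA-binding partner of the corepressor CBFA2T3, read 0.09, 0.18, -0.08 and 0.02 in row 1 and 0.66, 0.37 and 0.61 in row 2, so that its rows did not overlap. Its difference from the row 1 shRNAs was 0.58 ± 0.12 (SE, limma adjusted p = 0.0268), and from the controls 0.41 (adjusted p = 0.101), which missed the threshold. ZNF618 read -2.44 and -2.35 in the controls, -3.02 and -3.43 with PARN and CNOT6 shRNA, and -2.66, -2.20 and -2.21 in row 2. Its row 2 values lay at the level of the controls, and the difference of 0.87 ± 0.20 (SE) came with low values in both row 1 shRNAs. ZNF554 likewise was lowest with PARN shRNA (-3.72) and CNOT6 shRNA (-3.79), against -3.38 and -2.78 in the controls. The 12 members with all row 2 values above row 1 differed by 0.16 to 0.66, and 9 of them lie on chromosome 19.

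With limma, none of the members and 0.0% of all genes passed between PARN and CNOT6 shRNA and the controls, the smallest adjusted p being 0.848. Without adjustment 9 members (4.21%) passed, near the 4.73% of all genes (843) that did. The members with the smallest p were ZNF618 (-0.83 ± 0.22, SE), ZNF512B (-0.44 ± 0.15) and ZNF625 (0.46 ± 0.16). Without the empty-vector array 11 members passed (5.14%), close to the 4.64% of all genes that did. The 5 shRNAs together against the controls gave no member either, and again 0.0% of all genes. At an unadjusted p under 0.05 were 8 members (3.74%), all lower, near the share of all genes (3.92%). Of those 698 genes, 354 were lower. The smallest p among members there were those of ZNF629 (-0.48 ± 0.18, SE), ZNF678 (-0.55 ± 0.21) and ZNF740 (-0.63 ± 0.24), and the smallest adjusted p was 0.951.

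For each shRNA alone, a gene was called when it lay 2-fold or more above both controls, or 2-fold or more below both, which is a description of single arrays with no replicate check. With PARN shRNA 1 member was higher and none lower, where 0.129% and 0.353% of all genes were called. With CNOT6 shRNA 1 was higher and 1 lower (0.241% and 0.247% of all genes). With CNOT6L shRNA none was higher and 3 were lower (0.179% and 0.706%), with CNOT7 shRNA none and 1 (0.196% and 0.807%), and with NOC shRNA none and 1 (0.32% and 1.08%). The members below both controls were ZNF540, ZNF608 and ZNF703 for CNOT6L shRNA, ZNF540 for CNOT7 shRNA and ZNF703 for NOC shRNA.

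The call for PARN shRNA was ZNF613 on chromosome 19. It read -3.36 with PARN shRNA and -7.85 with NOC shRNA, both above background, and between -10.34 and -9.26 on the other 5 arrays, none above background. With PARN shRNA it was thus at least 39.4-fold above the controls, and with NOC shRNA at least 2.20-fold above its row mates. The probe lies on 1 spot, so this value has no second measurement on its array. ZNF613 passed the filter of at least 2 arrays only through the PARN and NOC shRNA arrays, where it is called higher. Its place among the tested members thus rests on the same values as its calls. ZNF610 read -4.54 with CNOT6 shRNA, and -7.15 on the empty-vector and -8.31 on the non-target array, the last not above background. It was 6.12-fold above the empty-vector array. ZNF510 was the lower call for CNOT6 shRNA, where it was not above background at -8.08, at least 3.13-fold below the controls at -6.52 and -6.35.

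Within row 2 the same rule against both other arrays of the row called ZNF613 higher with NOC shRNA and no other tested member. Over all genes the shares were 0.505% higher and 0.107% lower (CNOT6L shRNA), 0.157% and 0.0617% (CNOT7), and 0.174% and 0.174% (NOC). ZNF648 with CNOT6L shRNA and ZNF772 with CNOT7 shRNA passed the fold but were above background on that array alone and were not tested.

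The members with a described role outside KRAB silencing were small groups, and their differences between the row 2 shRNAs and the controls went both ways. Among the 3 genes of ribosome assembly and quality control none passed: ZNF593, a factor of the large subunit, lay at -0.31 ± 0.09 (SE), ZNF622, a cytoplasmic factor of its late maturation, at 0.21 ± 0.11, and ZNF598, the ubiquitin ligase that marks collided ribosomes, at -0.11 ± 0.10. Of the NET family and developmental regulators, ZNF703 fell, while ZNF503 lay at -0.23 ± 0.10 and ZNF521, a regulator of progenitor cells, at -1.13 ± 0.78. The ZNF521 values were -3.42 on the empty-vector array and between -7.21 and -5.41 on the rest, so that 1 control array stood above all others. ZNF750, an activator of epidermal differentiation, differed by 0.06 ± 0.38.

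Of the 7 members that sit in chromatin complexes none passed against the controls. ZNF827, which recruits the NuRD complex, lay at -0.55 ± 0.14 (SE) with an adjusted p of 0.0777, and its rows did not overlap. ZNF652 was described above, and ZNF592, ZNF687, ZNF644, ZNF532 and ZNF711 lay between -0.12 and 0.31. In the pair associated with the cohesin loader NIPBL, ZNF608 fell and ZNF609 lay at -0.42 ± 0.15 (adjusted p = 0.144). ZNF830, a factor of pre-mRNA splicing, lay at -0.37 ± 0.09 from the controls (adjusted p = 0.0695) and fell against the row 1 shRNAs (-0.37 ± 0.09, adjusted p = 0.0446), while ZNF638 lay at 0.03 ± 0.19. The KRAB members with a described target did not pass either: ZNF675 lay at -0.18, ZNF808 at -0.38, ZNF568 at 0.12 and ZNF746, which represses PGC-1α, at 0.18, and ZNF649 was not above background on any array.

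The corepressor pathway that KRAB members work through was read from 16 genes. All 16 of its genes were above background on the 7 arrays, and none passed between the row 2 shRNAs and the controls, with a median of -0.09 and 10 of 16 lower, beside -0.22 and 162 of 215 for the members and -0.01 over all genes. TRIM28, which the KRAB domain binds, stayed between 3.30 and 3.52 on all arrays (-0.04 ± 0.10, SE). Against the row 1 shRNAs SETDB1 and its partner ATF7IP fell, by 0.44 ± 0.09 and 0.69 ± 0.16 on the log2 scale (adjusted p = 0.0269 and 0.0353). The HP1 genes CBX1, CBX3 and CBX5 lay at 0.32, 0.34 and -0.20 from the controls, and MORC2, an ATPase that works with the HUSH complex, at -0.61 ± 0.15 (adjusted p = 0.0669).

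**Figure D5:**
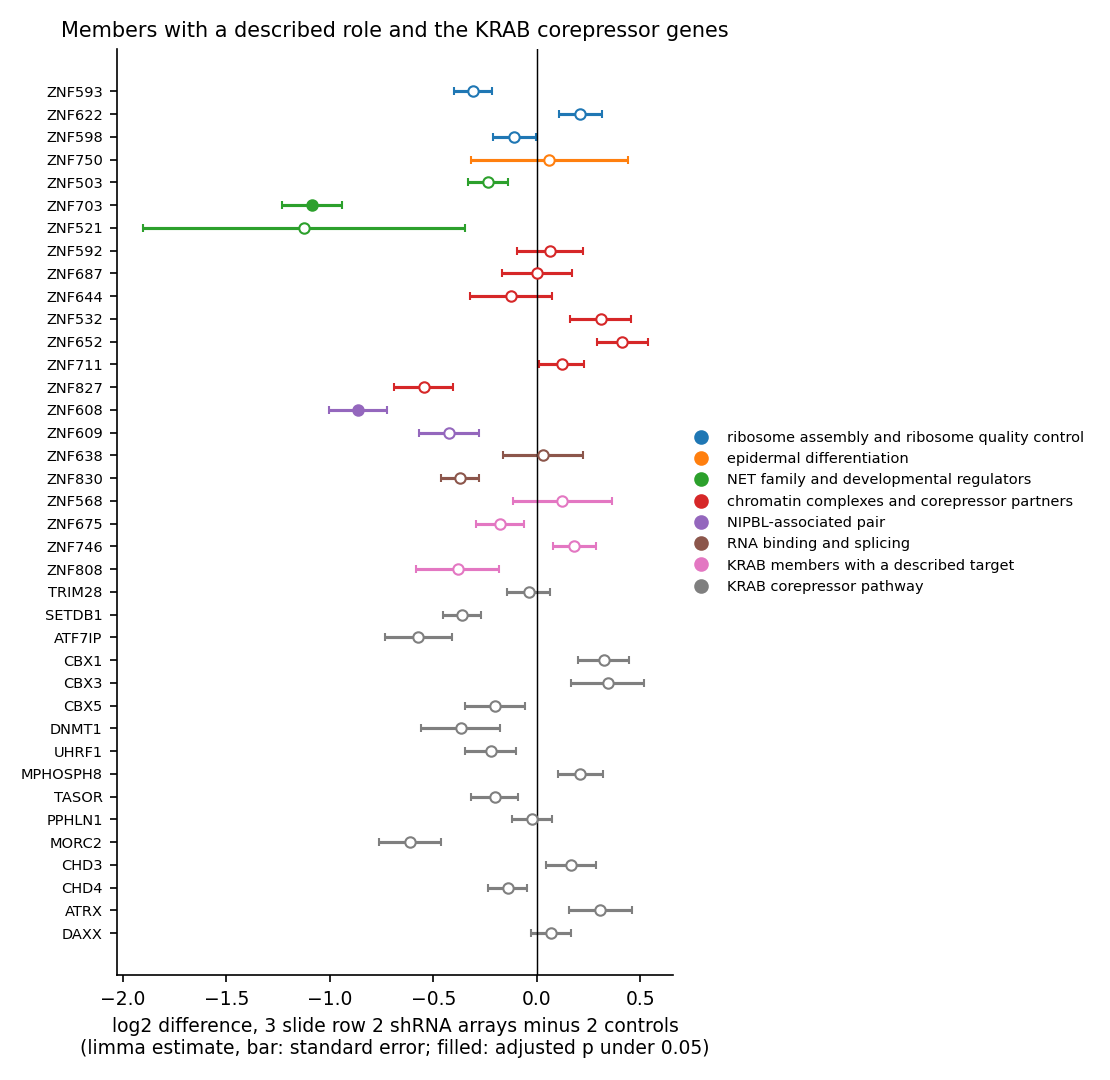
Each point is the limma estimate of the log2 difference between the 3 row 2 shRNA arrays and the 2 controls with its standard error as a bar, for members with a described role and for the 16 genes of the KRAB corepressor pathway; filled points passed at an adjusted p of 0.05. ZNF703 at -1.09 and ZNF608 at -0.86 are filled, and TRIM28 lies at -0.04.

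The members varied as much over the arrays as genes in general. Among the 205 above background on all arrays the range from lowest to highest array had a median of 0.62 log2 units, against 0.62 over 16457 such genes, and 17.6% of members exceeded 1 unit against 19.6%. The widest ranges were those of ZNF705D (2.25), ZNF665 (2.20), ZNF560 (1.94), ZNF705A (1.76) and ZNF763 (1.68). The narrowest were those of ZNF595 (0.17), ZNF670 (0.18) and ZNF564 (0.18). ZNF705D and ZNF705A are near-identical copies, so their probes may read each other's mRNA.

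In all 5 of the widest ranges a control array held the lowest or the highest value. Between the empty-vector and the non-target array 14 members (6.51%) were at least 2-fold higher and 1 was lower on the empty-vector array, where 10.8% and 0.578% of all genes were. Counted in both directions, the member share was 6.98% against 11.4% of all genes. With quantile normalization the shares were 6.05% and 6.59%, and with normexp background correction (described below) 2.79% and 2.3%. The member share thus lay below that of all genes with the main scaling, but not with normexp. Among members above background on both controls, ZNF521 differed by 2.83, ZNF665 by 2.20 and ZNF705D by 2.09 log2 units, and ZNF713 by -1.10. ZNF549, with a measured difference of 2.88, was not above background on the non-target array. ZNF665 read -4.96 on the empty-vector and -7.15 on the non-target array, and -6.13 to -5.12 with the 5 shRNAs, so that all shRNAs lay between the controls. ZNF763 was likewise highest on the empty-vector array, at 2.62, and read 1.31 on the non-target array. A difference of any shRNA from a single control has to be read beside this distance.

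The spread of a value within an array can be seen for the 6 member probes printed on 10 spots. Their SD between spots was 0.04 to 0.12 for 5 of them, and 0.25 to 0.71 for the dim probe of ZNF667. The 304 other member probes have 1 spot each.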

How the data were processed

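Total RNA of 7 NCI-H520 cultures was labelled with Cy3 and hybridised to 7 Agilent arrays, 1 per group, with groups taken from the sample titles. The deposited scanner files, written by Agilent Feature Extraction 10.7.3.1, hold the intensity of each spot as median signal, local background and processed signal. The log2 values of the deposited series table were compared with these files. They are log2 processed signal with each probe centred over the arrays, and 100.0% of probes agreed within 0.02 after 1 shift per array. The origin of those shifts is unknown. Column medians were -0.02 to 0.09. Neither table gives counts, and precision is limited by the number of arrays.

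Control spots and spots flagged as outliers were left out, spots of a probe averaged, and log2 processed signals centred on each array's 75th percentile. Symbols came from RefSeq by accession (24827 of 42405 gene probes named). Its assembly, GRCh38.p14, is not that of the array design, so no gene coordinates are printed except with the promoter sequences. limma 3.58.1 in R 4.3.3 (lmFit, eBayes with trend, two-sided, Benjamini-Hochberg 0.05) was run over all tested genes. On simulated data only 5 shRNA arrays against 2 controls were tried, with no slide row difference. The contrasts of the row 2 shRNAs were not checked there. The limma run dropped 30 genes with a missing value, 1 of them a member (ZNF775, no value with CNOT6 shRNA). Where a side was not above background it was floored at the lowest value of any probe above background on that array, and the fold is given as at least.

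Alternatives were quantile normalization, normexp background correction with an offset of 50 on the median signal (the mean signal is not used here), the series table, no filter on dim probes, the mean over a gene's probes, each control alone, slide row as a term and leaving out each array. Named genes were members called by fold (between the controls the 3 farthest in each direction among those above background on both), members of role lists, the widest and narrowest ranges, the smallest p of each contrast, the KRAB corepressor genes and the targeted genes; members called by limma are named besides. The members and lists were chosen with earlier results of these data known. Protein sequences were not analysed here. No value column was left without a sample.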

Additional observations from a re-analysis of the deposited data

How the results depend on the processing

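No paired analysis was possible because each group has 1 array. Of 155 alternative values for 23 results, 108 stayed within 1.5 times the count, or within 0.07 log2 units (the SD between the control medians) of the median, and 47 moved. The member medians of the 3 row 2 arrays stayed below 0 under every alternative: they were -0.34, -0.31 and -0.30 (CNOT6L, CNOT7, NOC shRNA) with the empty-vector array alone as control and -0.19, -0.14 and -0.12 with the non-target array alone, and that of CNOT7 was -0.29 with normexp. Normexp moved the median of all genes between slide rows to -0.12, beside -0.34 for members. The CNOT6 shRNA median was -0.0537 with the empty-vector array alone and -0.03 with quantile normalization, so it has no settled sign. The median between the controls was 0.00 (-0.0012) with quantile normalization.

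Members called 2-fold numbered 6, 6, 17, 12 and 12 (PARN, CNOT6, CNOT6L, CNOT7 and NOC shRNA) against the empty-vector array alone and 10, 13, 9, 4 and 7 against the non-target array alone. Their shares were 2.79%, 2.79%, 7.91%, 5.58% and 5.58%, beside 4.73%, 2.60%, 5.85%, 6.75% and 7.99% of all genes, and 4.65%, 6.05%, 4.19%, 1.86% and 3.26%, beside 5.66%, 9.45%, 6.78%, 6.02% and 6.14%. Quantile normalization gave 2 for PARN (0.93%), 0 for CNOT6L and 0 for CNOT7 shRNA, beside 0.376%, 0.897% and 1.12% of all genes. Normexp gave 1 for CNOT6 shRNA (0.465%), 0 for CNOT7 shRNA, 0 for NOC shRNA within row 2 and 6 between the controls (2.79%). All genes gave 0.219%, 0.342%, 0.0785% and 2.3% in these comparisons. The series table gave 1 for CNOT6L (0.465%) and 2 for NOC shRNA (0.93%), beside 0.858% and 1.37% of all genes. The mean over probes gave 1 for CNOT6L (0.465%) and 0 for NOC shRNA, beside 0.853% and 1.2%. Without the filter on dim probes, 1 was called for CNOT6L and 1 for CNOT7 shRNA within row 2. Each is 0.441% of members, beside 0.624% and 0.268% of all genes. Members separated by slide row, a count added after seeing the data, numbered 81 to 105 under 4 alternatives, against 91. Under these alternatives they were 37.7% to 48.8% of members beside 26.9% to 37.0% of all genes, both highest with normexp.

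By limma, normexp gave 22 members for the row 2 shRNAs against the controls (11 otherwise) and 94 against the row 1 shRNAs (34 otherwise), which is 10.3% and 43.9% of members where 5.26% and 29.3% of all genes passed. Leaving out 1 array gave 0 to 30 and 1 to 80 members, 0 to 11 for the row 1 shRNAs and 0 in each case for the 5 shRNAs against the controls. Where 1 array is left in an arm, it is assumed to vary like the others. With slide row as a term, the 5 shRNAs against the controls gave 0 members. Row 2 holds no control, so this setting repeats the comparison of the row 1 shRNAs with the controls. It is no separate check of the row 2 shRNAs. The causes were not tested.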
